A study of Mus musculus with 6 samples.

Results

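Nos2 encodes the inducible nitric oxide synthase, which makes nitric oxide and citrulline from arginine. Its level was compared between the PI and AI co-cultures with those of 9 genes that bring arginine to it, return citrulline to arginine, supply its cofactor or use arginine in other ways. The 10 genes were Nos2, Gch1, Slc7a1, Slc7a2, Ass1, Asl, Ddah1, Arg1, Arg2 and Odc1. They were chosen by symbol, each was carried by 1 transcript cluster (the set of probes that the array reads as a gene), and all 10 were among the 23385 genes tested.

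The samples were 4T1 cells, a mouse mammary carcinoma line labelled as lacking oestrogen receptor, progesterone receptor and HER2. They were cultured for 24 h with bone marrow-derived macrophages polarised beforehand to a pro-inflammatory state (PI, 3 arrays) or to an anti-inflammatory state (AI, 3 arrays). Macrophages of each replicate came from individual mice, and the labels name neither their strain and age nor the polarising agents. The tumour cells were 1 line throughout. After co-culture, macrophages were bound with CD11b microbeads and held back on a column, and RNA of the flow-through was hybridised to Affymetrix arrays. No array of 4T1 cells cultured alone was compared, so a difference shows that PI and AI differ, not which of them changed the tumour cells.

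Arginine enters cells through cationic amino acid transporters, of which Slc7a1 and Slc7a2 encode members. Nitric oxide synthase needs the cofactor tetrahydrobiopterin, whose synthesis starts with the enzyme encoded by Gch1, and the citrulline it releases can be turned back into arginine by the products of Ass1 and Asl. Arginases, encoded by Arg1 and Arg2, instead split arginine into urea and ornithine, and Odc1 encodes the enzyme that takes ornithine into polyamines. In macrophages, high Nos2 is a textbook mark of the pro-inflammatory state and high Arg1 of the anti-inflammatory state.

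Levels below are RMA values in log2 units, and each difference is the PI mean minus the AI mean in the same units, tested with limma over all 23385 genes with Benjamini-Hochberg adjustment and a threshold of 0.05. Signals of different clusters share no scale, so levels are compared between arrays and not between genes. The correlation over all clusters between any pair of arrays was 0.987 to 0.990, and by this measure no array stood apart. The label of the tumour line was checked against epithelial genes. On arrays whose values ran from 1.33 to 13.89, the keratin genes Krt8, Krt18, Krt7, Krt14 and Krt19 had mean levels of 10.70, 10.89, 7.47, 5.86 and 4.32 in PI and 10.81, 11.11, 7.66, 6.28 and 4.27 in AI. The junction genes Cdh1, Epcam and Cldn7 had 6.41, 5.69 and 4.16 in PI and 6.57, 5.88 and 4.10 in AI. The receptor genes Erbb2, Esr1 and Pgr had 7.78, 5.39 and 3.18 in PI and 7.93, 5.18 and 3.07 in AI. With no shared scale between clusters, these signals settle neither the epithelial nor the receptor label.

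Nos2 was the member that rose. Its level was 7.26, 7.43 and 7.62 in PI replicates 1, 2 and 3, against 6.49, 6.45 and 6.53 in AI replicates 1, 2 and 3. All PI arrays lay above all AI arrays, with a gap of 0.74 between the lowest PI and the highest AI array, and the AI arrays lay within 0.08 of each other while the PI arrays spanned 0.35. The mean was 7.44 ± 0.18 in PI and 6.49 ± 0.04 in AI (SD, n = 3 each), a log2 fold change of 0.95 with a standard error of 0.10, or 1.93-fold (95% interval 1.63 to 2.28, limma adjusted p = 0.0319). Of all genes, 25 had a larger log2 fold change and 16 a smaller p. In the authors' deposited table the fold of Nos2 was 0.518 as AI over PI, with a p-value of 0.000811 and a q-value of 0.492.

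Of the 10 members, 1 rose, 0 fell and 9 did not pass, where 0.0727% of all genes tested passed and all of those were higher in PI. Groups were apart for 2 members, where 13.2% of all genes had groups without overlap. Nos2 had all PI arrays above all AI arrays, like 5.85% of all genes, and Asl had all PI arrays below, like 7.32%. The 9 other members had a median log2 fold change of -0.02, against a median of -0.01 over all genes tested. The call of Nos2 was lost in 9 of 15 alternative settings, 5 of which left out 1 array, with a log2 fold change of 0.86 to 1.04 throughout. Without PI replicate 2, PI replicate 3, AI replicate 1, AI replicate 2 or AI replicate 3 its adjusted p was 0.165, 0.104, 0.161, 0.196 or 0.157, and without PI replicate 1 it was 0.0472 (limma).

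**Figure D1:**
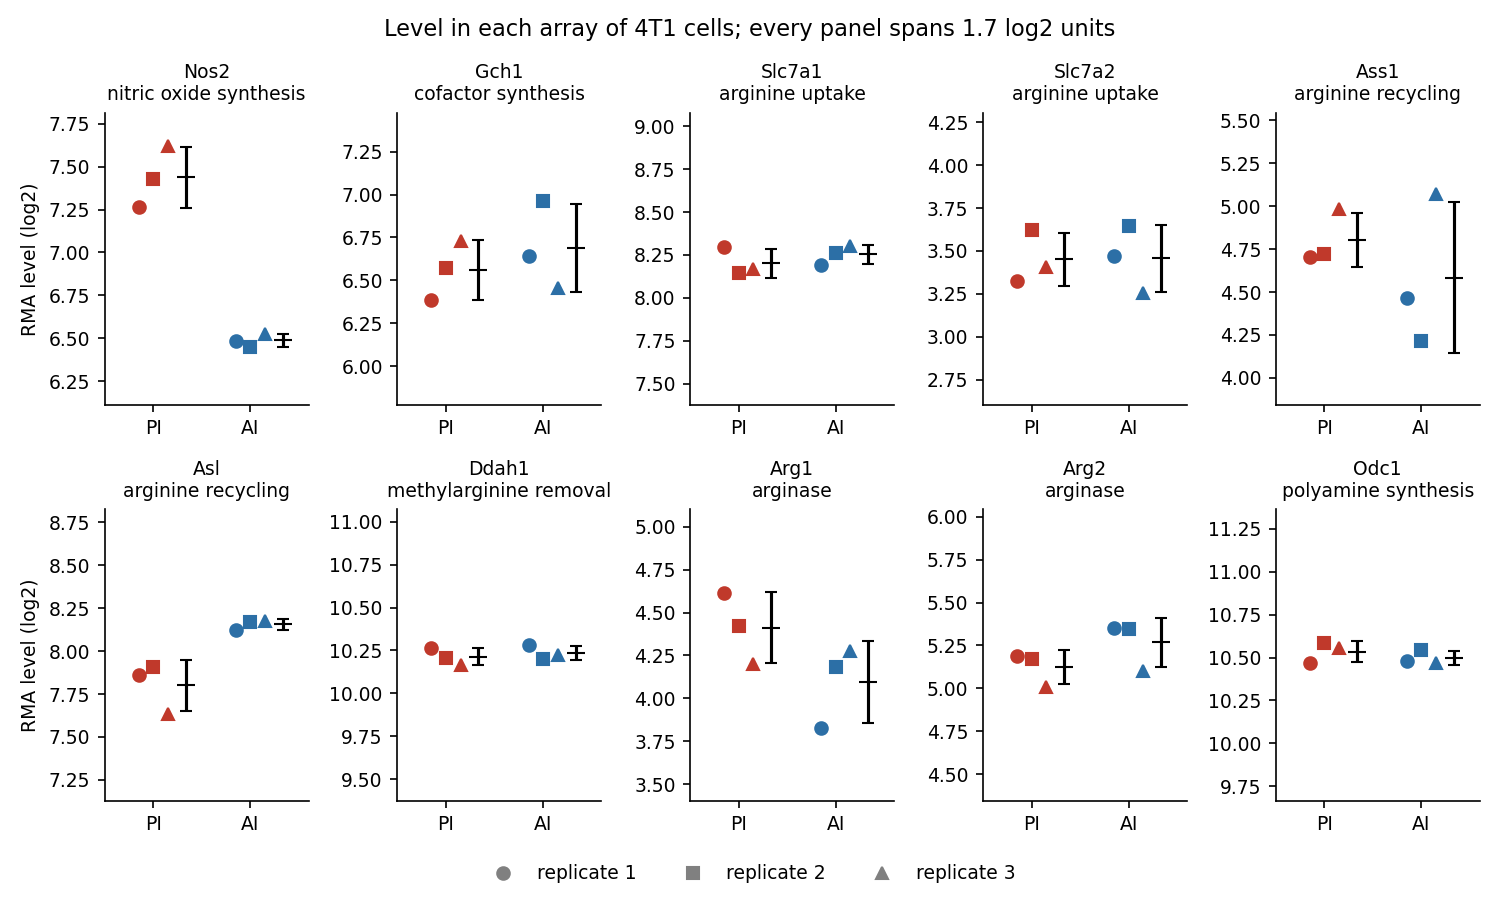
RMA level on the log2 scale in each PI (red) and AI (blue) array, 1 panel per gene. Marker shapes give the replicate number, and bars give mean ± SD (n = 3). Panels have the same span, and each has its own midpoint. The groups are apart for Nos2 (PI higher) and Asl (PI lower), and they overlap for the other 8 genes.

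**Figure D2:**
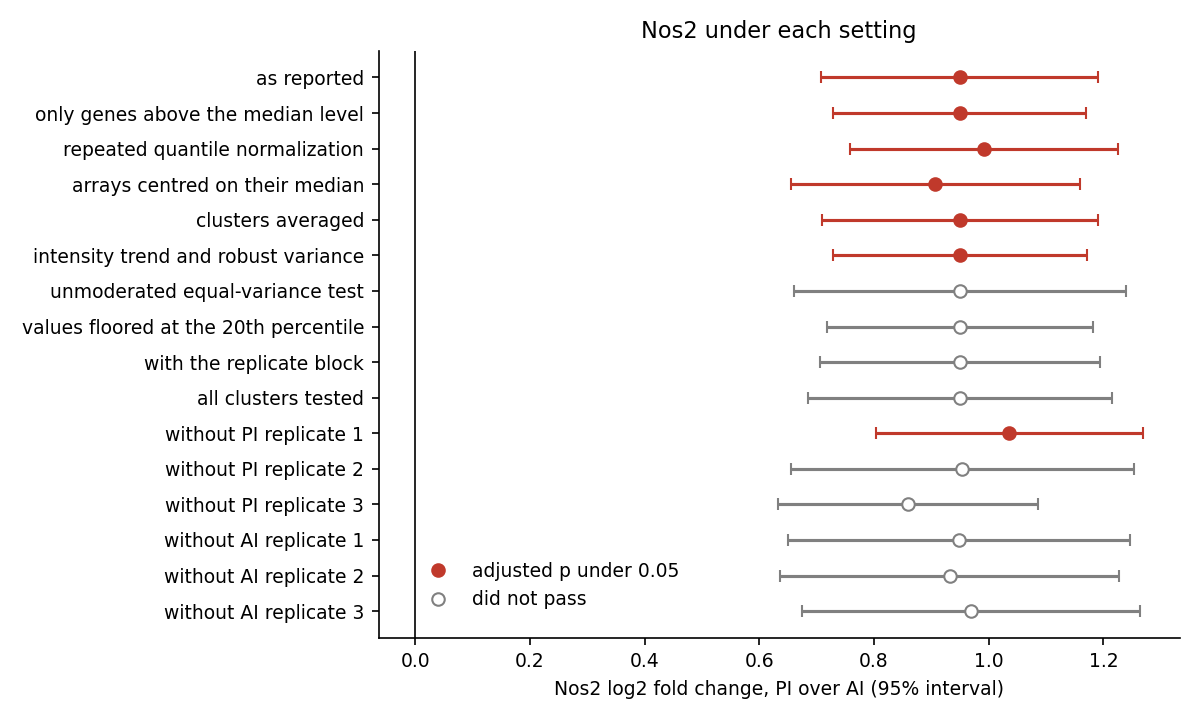
Nos2 log2 fold change, PI over AI, as reported and under 15 alternatives, with 95% intervals. Filled points passed an adjusted p of 0.05 and open points did not. All estimates lie between 0.86 and 1.04 and none of the intervals reaches 0.

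None of the genes that supply the cofactor of Nos2 passed the test. Gch1, which encodes GTP cyclohydrolase, the first enzyme of tetrahydrobiopterin synthesis, had levels of 6.38, 6.57 and 6.73 in PI arrays against 6.64, 6.96 and 6.46 in AI arrays. The groups overlapped, with the highest and the lowest values of Gch1 in an AI and a PI array. The log2 fold change was -0.13 (95% interval -0.47 to 0.22, limma adjusted p = 0.878), and it was 0.011 without AI replicate 2. Among 7 further genes of tetrahydrobiopterin synthesis and recycling, 0 rose and 0 fell, with a median of -0.06 and a range of -0.16 to 0.02. Gchfr, whose product is a feedback regulator of GTP cyclohydrolase, had a value of -0.11, Qdpr, which encodes the enzyme that recycles the cofactor, -0.08, and Pcbd1, which encodes a carbinolamine dehydratase of the same cycle, -0.16.

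Transcript levels of the arginine uptake genes Slc7a1 and Slc7a2 differed between PI and AI by less than the spread between arrays. Slc7a1, which encodes the widely expressed transporter CAT-1, lay between 8.14 and 8.30 in PI arrays and between 8.19 and 8.30 in AI arrays, with a log2 fold change of -0.05 (95% interval -0.24 to 0.14, limma adjusted p = 0.916). Slc7a2, which encodes the CAT-2 transporters and is known to be induced together with Nos2 in activated macrophages, lay between 3.32 and 3.62 in PI arrays and between 3.26 and 3.65 in AI arrays. Its log2 fold change was -0.01 (95% interval -0.30 to 0.29, limma adjusted p = 0.997). Its sign was positive without PI replicate 1, PI replicate 3 or AI replicate 2. The mean level of Slc7a2 stood at percentile 26.9 of all genes tested, and whether it exceeded background was not tested. Of 8 further genes of arginine and ornithine transport, 0 rose and 0 fell, with a median of -0.05. They included Slc25a29, which encodes a mitochondrial carrier of basic amino acids, at -0.23, and Slc25a15, which encodes the mitochondrial ornithine carrier, at -0.11. Slc7a7, which encodes a subunit of a cationic amino acid exchanger, had 0.07.

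The genes for the 2 enzymes of citrulline recycling had values of opposite sign, neither past the test. Asl, which encodes argininosuccinate lyase, the second step, had levels of 7.86, 7.91 and 7.63 in PI arrays against 8.12, 8.17 and 8.18 in AI arrays. All PI arrays lay below all AI arrays, by a gap of 0.21, and PI replicate 3 was the lowest. The means were 7.80 ± 0.15 in PI and 8.16 ± 0.03 in AI (SD, n = 3 each), and the log2 fold change was -0.36 with a 95% interval of -0.58 to -0.13 (limma unadjusted p = 0.00623, adjusted p = 0.499). At an unadjusted p under 0.05 limma had 7.36% of all genes, so 1 member other than Nos2 at that level is near the background. Ass1, which encodes argininosuccinate synthase, the first and usually limiting step, had 4.70, 4.72 and 4.98 in PI arrays against 4.46, 4.21 and 5.07 in AI arrays. AI replicate 3 held the highest Ass1 value of all arrays and AI replicate 2 the lowest, so that the AI arrays spanned 0.86. Its log2 fold change was 0.22 with a 95% interval of -0.27 to 0.71, the widest of the members (limma adjusted p = 0.846). It was 0.034 without AI replicate 2 and 0.46 without AI replicate 3.

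The arginase and polyamine branch had no member past the test. Arg1, which encodes the cytosolic arginase, had levels of 4.61, 4.42 and 4.20 in PI arrays against 3.83, 4.18 and 4.28 in AI arrays. The groups overlapped, with AI replicate 1 lowest and PI replicate 1 highest. The log2 fold change of Arg1 was 0.32 (95% interval -0.03 to 0.66, limma adjusted p = 0.699), and it was 0.18 without AI replicate 1. Arg2, which encodes the mitochondrial arginase, lay between 5.01 and 5.19 in PI arrays and between 5.10 and 5.35 in AI arrays, with a log2 fold change of -0.14 (95% interval -0.38 to 0.09, limma adjusted p = 0.795). Odc1, which encodes ornithine decarboxylase, lay between 10.47 and 10.58 in PI arrays and between 10.47 and 10.54 in AI arrays. Its log2 fold change was 0.04 (95% interval -0.14 to 0.22, limma adjusted p = 0.938), and it was -0.0039 when arrays were centred on their medians.

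Of 14 further polyamine genes tested, 0 rose and 0 fell, with a median of 0.03 and a range of -0.22 to 0.18. Srm, which encodes spermidine synthase, had levels of 10.28 ± 0.06 in PI and 10.51 ± 0.03 in AI (SD, n = 3 each), a log2 fold change of -0.22. Sat1, which encodes the acetyltransferase that starts polyamine breakdown, had 8.32 ± 0.05 in PI and 8.14 ± 0.04 in AI (SD, n = 3 each), a log2 fold change of 0.18. The groups were apart for both genes, Srm lower and Sat1 higher in PI. Of the 14, 2 had all PI arrays above all AI arrays, where 5.85% of all genes did. Another 2 had all PI arrays below, where 7.32% did. Neither Srm nor Sat1 passed over all genes (limma adjusted p = 0.616 for Srm and 0.676 for Sat1). Atp13a3, which encodes a polyamine transporter, had -0.13.

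Ddah1 encodes an enzyme that breaks down asymmetric methylarginines, which inhibit nitric oxide synthases. Its level was 10.17 to 10.27 in PI arrays and 10.20 to 10.28 in AI arrays, and its log2 fold change of -0.02 had a 95% interval reaching -0.20 and 0.16 (limma adjusted p = 0.974). Repeated quantile normalisation gave Ddah1 a value of 0.0061. Of 8 further genes that make or remove methylarginines, 0 rose and 0 fell, with a median of -0.07. The arginine methyltransferases Prmt5 and Prmt6 had -0.16 and -0.23, and Ddah2, the relative of Ddah1, had -0.17.

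**Figure D3:**
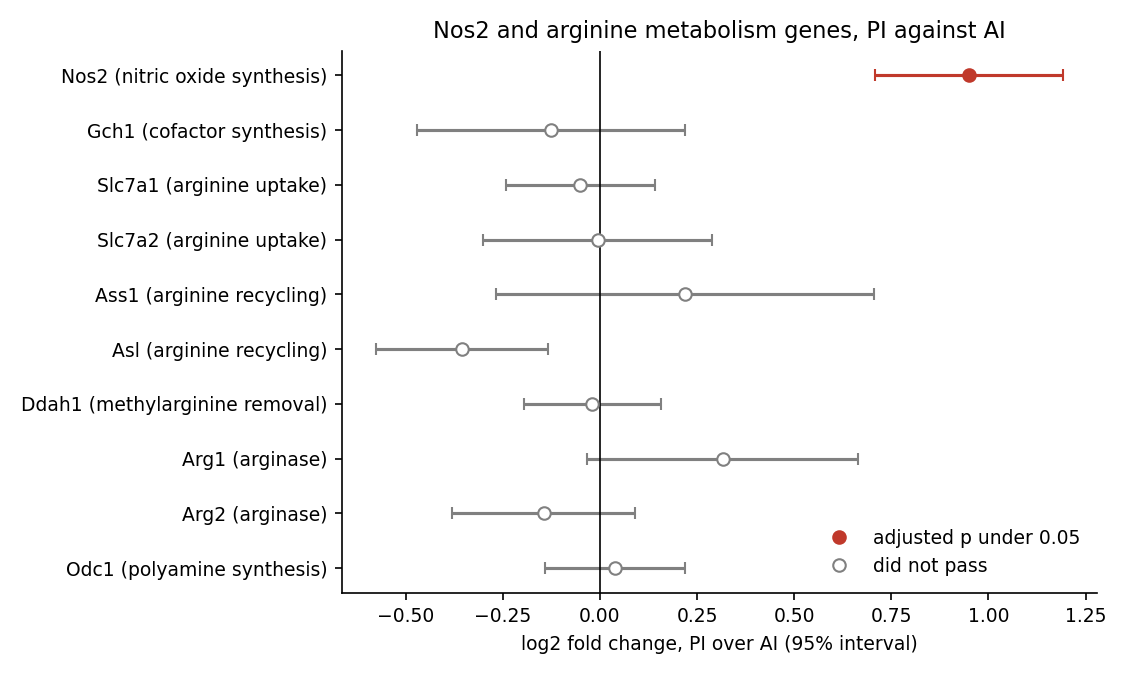
Log2 fold change, PI over AI, of the 10 genes with limma's 95% intervals, ordered by role. The filled point, Nos2, passed an adjusted p of 0.05 at 0.95, and the open points did not pass. The interval of Nos2 starts at 0.708, and the highest upper bound of the others is 0.706, for Ass1.

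The difference between Nos2 and each of the other members was then taken within each array, which asks whether Nos2 changed by another amount than its neighbour in the pathway. Nos2 minus Gch1 was 0.88, 0.86 and 0.89 in PI arrays, against -0.16, -0.51 and 0.07 in AI arrays, a change of 1.08. For 8 of the 9 pairs all PI arrays lay above all AI arrays, with changes of 0.73 (Ass1) to 1.31 (Asl). All 9 pairs hold the same Nos2 values, whose groups were already apart by 0.74, so the 8 are not separate results. How many of all genes would give such a pair with Nos2 was not tested. An exact two-sided permutation test gave p = 0.1 for each of these 8 pairs (adjusted p = 0.113 over 9 pairs). A p of 0.1 is the smallest that 3 arrays against 3 can give, so no pair could pass the threshold used above. The test therefore cannot decide whether Nos2 changed by another amount than its neighbour. Nos2 minus Arg1 changed by 0.63, and its PI and AI arrays overlapped, with 2.65 in PI replicate 1 and 2.66 in AI replicate 1 (exact permutation p = 0.2, adjusted p = 0.2). Within PI, Nos2 was highest in replicate 3 and lowest in replicate 1, while Arg1 was lowest in replicate 3 and highest in replicate 1. With 3 arrays this order is a description only.

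The other nitric oxide synthase genes did not pass. Of 5 genes of this family and its partners, 0 rose and 0 fell, with a median of -0.06. Nos3, the endothelial synthase, had a value of 0.22, and Nostrin and Nosip, whose products bind the endothelial synthase, had -0.23 and -0.12. Of 10 genes of the urea cycle and of the branch that links ornithine to proline and glutamate, 0 rose and 0 fell, with a median of -0.01. Cps1, which encodes the entry enzyme of the urea cycle, had 0.26, and Oat, which encodes ornithine aminotransferase, had -0.12. Of 4 genes of creatine synthesis and use, which also draws on arginine, 0 rose and 0 fell, with a median of -0.15 and values of -0.19 for the creatine kinase Ckb, -0.20 for Gamt, which encodes the enzyme that completes creatine, and 0.09 for Gatm, which encodes its arginine-using first enzyme. Of 8 genes for targets and handling of nitric oxide, 0 rose and 0 fell, with a median of 0.07. Nqo1, a quinone reductase, had 0.21, Gucy1a1, a subunit of the nitric oxide receptor, 0.23, and Hmox1, haem oxygenase, 0.11. The groups of Gucy1a1 overlapped, with 3.07, 3.75 and 3.04 in PI arrays against 3.09, 2.89 and 3.17 in AI arrays. Of the 8 genes, 6 had positive and 2 had negative values.

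Regulators of Nos2 transcription gave the only call among these lists. Of 12 tested, 1 rose, 0 fell and 11 did not pass, with a median of 0.01, where 0.0727% of all genes tested passed. This call was lost in 7 of the 15 alternatives, among them those without PI replicate 2, PI replicate 3 or AI replicate 3. Irf1, an interferon-induced transcription factor needed for Nos2 induction in mouse macrophages, was 7.67, 7.73 and 7.92 in PI arrays against 6.84, 7.05 and 6.80 in AI arrays. Its groups did not overlap, and its log2 fold change of 0.87 just missed the threshold (limma adjusted p = 0.0541). Of the 12 regulators, 3 had all PI arrays above all AI arrays, where 5.85% of all genes did. Another 2 had all PI arrays below, where 7.32% did. Ifngr1 and Ifngr2, the chains of the interferon-gamma receptor, had -0.16 and -0.19, and for Ifngr2 all PI arrays lay below all AI arrays. Over the 9 lists together, 1 of 76 entries passed, against that 0.0727% of all genes.

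**Figure D4:**
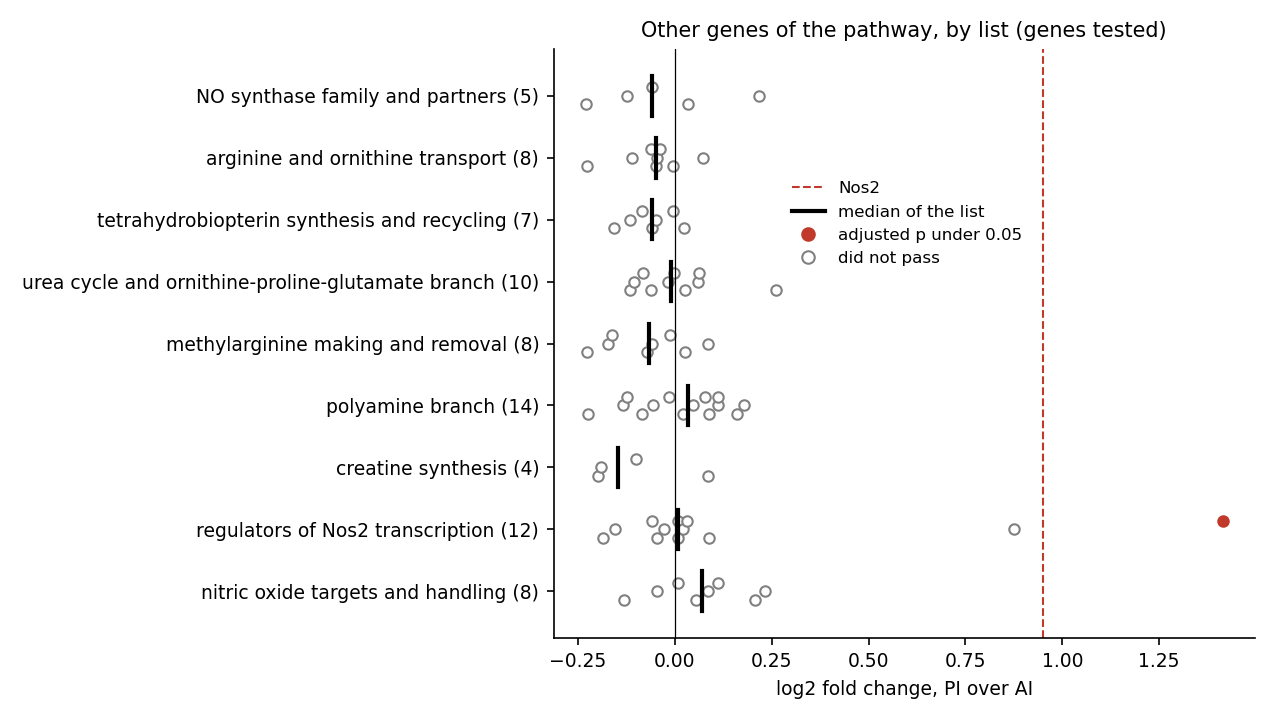
Log2 fold change, PI over AI, of every tested gene in the 9 lists of further pathway genes, with the number tested in brackets. Thick bars are list medians and the dashed line is Nos2 at 0.95. Apart from 2 regulators of Nos2 transcription, all points lie between -0.23 and 0.26.

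Genes whose levels followed Nos2 most closely were sought among all genes tested, leaving out predicted genes and the members. Likeness was the root mean square difference over the 6 arrays between log2 levels centred on each gene's mean, with a smaller value being more alike. The 6 nearest were Gbp9, a guanylate-binding protein (0.0859), Psmb10, an immunoproteasome subunit (0.0915), Irf1 (0.111), Psmb8, another immunoproteasome subunit (0.115), Irf7, an interferon regulatory factor (0.123), and Uba7, the activating enzyme for ISG15 (0.126). Their log2 fold changes were 0.80 to 1.13. All 6 had PI arrays above AI arrays, as 5.85% of all genes did, and in each of them, as in Nos2, PI replicate 3 was the highest PI array and PI replicate 1 the lowest. The measure selects for all of these features, so they describe the 6 genes and support nothing further. Among the other members the nearest was Arg1 at 0.409, with 1871 genes nearer to Nos2, and the farthest was Asl at 0.677, with 22921 nearer. Both counts take in predicted genes and members.

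**Figure D5:**
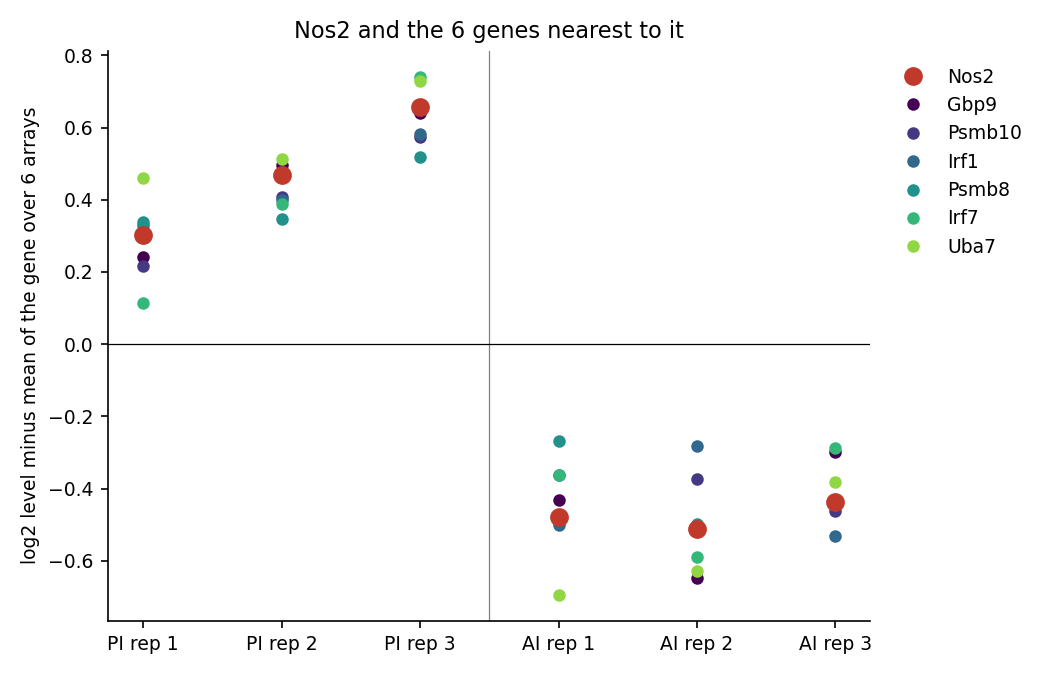
Log2 level minus the gene's mean over 6 arrays, for Nos2 and the 6 genes nearest to it, leaving out predicted genes and members. PI arrays are on the left and AI arrays on the right. All 7 genes lie above their means in every PI array and below them in every AI array, as the choice of the nearest genes entails.

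Promoter sequence from RefSeq is shown for a gene that followed Nos2, Irf1, and for the member whose product makes the cofactor of Nos2, Gch1. Each is the 250 bases before an annotated start in build GRCm38.p6, 5′ to 3′ along the gene. This window of Irf1, the first of 2 starts in the table, is at chr11:53769764-53770013 on the plus strand, and Gch1 at chr14:47189414-47189663 on the minus strand. Capitals mark matches on either strand to the STAT-binding GAS motif (TTCNNNGAA), the NF-kB motif (GGGANNNNCC), the interferon response element (GAAANNGAAA) and the TATA box (TATAAA).
Irf1: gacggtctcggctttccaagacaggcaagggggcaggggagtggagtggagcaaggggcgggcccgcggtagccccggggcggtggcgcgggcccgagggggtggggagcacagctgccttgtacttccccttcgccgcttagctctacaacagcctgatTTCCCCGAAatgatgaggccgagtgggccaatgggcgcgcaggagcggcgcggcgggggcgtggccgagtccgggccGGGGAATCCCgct
Gch1: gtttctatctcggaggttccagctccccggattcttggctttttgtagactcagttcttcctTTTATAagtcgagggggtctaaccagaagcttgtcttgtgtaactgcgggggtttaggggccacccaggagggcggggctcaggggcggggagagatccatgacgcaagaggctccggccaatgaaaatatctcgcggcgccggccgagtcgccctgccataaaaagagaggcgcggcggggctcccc

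The first Irf1 window held a GAS match at bases -90 to -82 and an NF-kB match at -13 to -4, counted back from the start, and the window of its second start held none of the 4 motifs. Of 5 of the 6 nearest genes that the table holds, in 6 windows, 2 windows held GAS (Irf1 and Psmb8) and 1 held NF-kB. The interferon response element was in 0 of these 6 windows and TATA in 2 (Psmb8 and Irf7). The windows of Psmb10, Irf7 and Uba7 held neither GAS nor NF-kB. The Gch1 window held a TATA match, on the other strand, at -188 to -183 and none of the other 3 motifs. The promoter table held 5 of the 10 members (Gch1, Slc7a1, Ass1, Ddah1 and Odc1) in 6 windows, since Slc7a1 has 2 starts there. Of these 6 windows, 1 held GAS (the second start of Slc7a1), 2 held NF-kB (the first start of Slc7a1, and Ass1) and 0 held the interferon response element. TATA was in 2 of them (Gch1 and the second start of Slc7a1). Among all 32851 windows, 7.02% held GAS, 17.6% NF-kB, 2.98% the interferon response element and 12.4% TATA. A match of letters is not evidence of binding, and a window without one says nothing of sites farther away.

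Macrophage transcripts were examined because macrophages themselves express Nos2 and Arg1. In a bulk sample, fewer cells of a type and less RNA per cell cannot be told apart. Of 12 general macrophage genes, 0 passed, with a median log2 fold change of 0.02 and a mean level over the list of 4.46 to 4.55 in PI arrays and 4.40 to 4.53 in AI arrays. The depletion target Itgam, which encodes CD11b, was at 2.98 in PI and 2.97 in AI, and Adgre1, Csf1r, Ptprc and Lyz2 had log2 fold changes of 0.00, -0.10, -0.21 and 0.19. Cd68, which many cell types express, differed by 0.03. The groups were apart for 2 of these 12 general macrophage genes, both chosen after their values were seen. Of all genes, 13.2% had groups without overlap. Mpeg1, a macrophage pore-forming protein, had 0.58 with all PI arrays above (limma adjusted p = 0.476), and Cd14, a receptor for bacterial lipopolysaccharide, had -0.23 with all PI arrays below (limma adjusted p = 0.662).

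Of 11 further pro-inflammatory macrophage genes, 0 passed and 10 had positive values, where 11069 of all 23385 genes tested did. This list had a median of 0.09 and mean levels of 4.58 to 4.77 in PI arrays and 4.52 to 4.75 in AI arrays. Il1b, an inflammatory cytokine, had 0.25. Of 11 anti-inflammatory genes, 0 passed and 6 had positive values, with a median of 0.02 and mean levels of 4.73 to 4.78 in PI arrays and 4.76 to 4.99 in AI arrays. Ccl22, a chemokine of this state, had -1.02, with all PI arrays below all AI arrays (limma adjusted p = 0.392), the lowest log2 fold change of all genes tested. Clec10a, a lectin of this state that was chosen after its value was seen, had 0.44 (limma adjusted p = 0.672). The 8 neutrophil genes had a median of 0.09, with S100a8, a calgranulin, at 0.45, and the 6 fibroblast genes had a median of 0.00, with Pdgfra, a growth factor receptor, at -0.05. The 8 epithelial genes had a median of -0.17 and mean levels of 6.90 to 6.99 in PI arrays and 6.99 to 7.14 in AI arrays, groups that just missed overlapping, with Krt14, a basal keratin, at -0.41. None of these lists had a member past the test, and the part of remaining macrophages in the level of Nos2 was not tested.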

How the data were processed

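RNA of 4T1 cells was measured on 6 Affymetrix arrays, 3 PI and 3 AI, grouped by their titles. The authors deposited log2 expression values, made with Affymetrix Expression Console and RMA per the submitters' processing notes. For the array annotation and genome build, no version is given in the sources used here. The 2 deposited tables held the same values for 41345 clusters. A p-value, a q-value and a fold of the authors stand beside them per the file headers, the fold being a ratio of AI over PI by its values. Their test is not stated.

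Clusters with 1 gene symbol (24724) were used, with symbols updated through Entrez identifiers by a RefSeq table of GRCm38.p6 (23652 matched). The cluster with the highest mean stood for a gene, leaving 23385 genes. No filter on dim genes was applied. PI and AI were compared with limma 3.58.1 in R 4.3.3 (lmFit, eBayes, group only), two-sided. Pairs of genes were compared by exact permutation. The number of arrays limits precision, and 95% intervals had a median half-width of 0.25. Python 3.11.15, pandas 2.3.3, scipy 1.17.1 and matplotlib 3.10.9 were used.

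The members, lists, tests and alternatives were chosen with earlier results of these data known. All members were named, of each pathway list the members past the threshold and the 3 with the smallest p, of the marker lists 6 macrophage genes and otherwise the smallest p, and the 6 named genes nearest to Nos2. Some genes the rule takes, among them the list member past the threshold, are not reported here. Promoter sequences are those of RefSeq, GRCm38.p6.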

Additional observations from a re-analysis of the deposited data

How the results depend on the processing

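Of 15 alternatives, 7 leave the Nos2 log2 fold change as it was by construction, and it stayed positive in the 8 that can move it (0.86 to 1.04). Its call held among genes above the median level, after quantile normalisation (adjusted p = 0.0205), array centring (0.0454) or averaging of clusters, and with an intensity trend and robust variance. With its log2 fold change of 0.95 it did not pass in an unmoderated equal-variance test (adjusted p = 0.440), with values floored at the 20th percentile (0.0801), with the replicate block (0.153) or with all 41345 clusters tested (0.132), and 0 members passed in each of these 4. More features are adjusted for in the last, and fewer residual degrees of freedom are left by the block. The unmoderated test uses the residual degrees of freedom alone, without those that moderation adds from other genes. The standard error of Nos2 was 0.110 over all clusters and 0.0973 with the block, against 0.104 as reported. Why the call was lost was not tested for any of these 4 settings. Leaving out 1 array gave Nos2 0.86 to 1.04 with adjusted p of 0.0472 to 0.196, and 0 to 1 members, 0 to 1 regulators and 1 to 14 genes in all. The count over all genes, 17 as reported, was 42 above the median level (40 higher, 2 lower), 76 with trend and robust variance (69 higher, 7 lower), 2 unmoderated (0 higher, 2 lower), 4 floored, 1 with the block and 8 over all clusters. The list of regulators had 2 past the threshold (Irf1 joining) above the median level, after quantile normalisation and with trend and robust variance, and 0 unmoderated, floored, blocked or over all clusters. Members near 0 changed sign, none past the threshold. Leaving out 1 array gave Gch1 -0.24 to 0.011, Slc7a2 -0.11 to 0.089 and Ddah1 -0.046 to 0.0037. Ddah1 was 0.0061 after quantile normalisation, and Odc1 was -0.0039 after centring. None of the 9 members other than Nos2 passed in any setting. The change in Nos2 minus another member stayed positive in the 63 recomputations by quantile normalisation or without 1 array (0.44 to 1.42), while centring, averaging and flooring leave it as it was. The recomputations all draw on the same Nos2 arrays and are not separate results. The labels do not say whether equal replicate numbers share a mouse. Deviations from group means correlated at 0.041, 0.006 and 0.057 for same-numbered arrays. For differently numbered arrays the correlations ran from -0.075 to 0.038. Pairing was not assumed, and these correlations do not settle it.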
